A study of Homo sapiens with 6 samples.

Results

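The spliceosomal small nuclear RNAs (snRNAs), the Y RNAs and the vault RNAs were examined in nuclear RNA recovered with ORC1, the largest subunit of the complex that marks replication origins. Members were the genes whose symbol begins with RNU and a digit, RNVU, RNY and a digit, or VTRNA, which held for 97 of the 23013 genes with values. By class these were 30 U1, 11 U2, 6 U4, 7 U5, 27 U6, 3 U7, 7 minor spliceosome, 4 Y and 2 vault RNA genes. Of the 97, 73 carried the symbol of a pseudogene (a trailing P) and 24 did not. Other snRNA, Y and vault genes were not analysed here.

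Native RNA immunoprecipitation followed by sequencing was performed on nuclei of untreated, asynchronous HCT116 cells, a human colorectal carcinoma line. The groups were 3 inputs, nuclear lysate taken without antibody, and 3 immunoprecipitates with an antibody against endogenous ORC1 (ORC1 IP). The question of the comparison was which RNAs were enriched in the IP over nuclear RNA. Nothing in the labels says whether replicates came from separate cultures, so p-values measure only the spread between these libraries, and no library from a control antibody was used here.

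The U1, U2, U4, U5 and U6 snRNAs are short, non-coding RNAs that form, with Sm or LSm proteins, the small nuclear ribonucleoproteins (snRNPs) of the spliceosome. U1 pairs with the 5′ splice site and U2 with the branch site, and the U4/U6.U5 tri-snRNP then joins to form the catalytic core. A separate minor spliceosome uses U11, U12, U4atac and U6atac, whereas U7 acts in histone mRNA 3′ end processing. Y RNAs bind the Ro60 and La proteins and have been studied for a role in the initiation of DNA replication. Vault RNAs are named after the cytoplasmic vault particle, and membership of this class here rests on the symbol alone.

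To show what was counted, sequences are given for the genes on which the values below turn: abundant copies of several classes, both tested U4 genes, the canonical U1 gene and the tested U1 copy with the largest fall. They are the GENCODE v44 transcripts on GRCh38, matched by Ensembl gene identifier and written as DNA. Capitals mark letters of a short element of the class, found by a search of the sense strand: the splice-site pairing letters ACTTACCTG of U1, the Sm sites ATTTGTG (U1) and ATTTTTG (U2, U4), and the branch-site pairing region GTAGTA of U2.
RNU1-1: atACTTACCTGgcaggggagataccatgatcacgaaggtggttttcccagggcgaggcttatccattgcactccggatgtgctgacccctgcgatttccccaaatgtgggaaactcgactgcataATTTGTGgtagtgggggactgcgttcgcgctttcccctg
RNU1-67P: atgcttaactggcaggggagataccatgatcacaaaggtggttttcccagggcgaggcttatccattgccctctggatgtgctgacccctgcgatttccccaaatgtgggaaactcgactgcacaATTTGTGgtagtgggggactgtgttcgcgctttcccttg
RNU1-85P: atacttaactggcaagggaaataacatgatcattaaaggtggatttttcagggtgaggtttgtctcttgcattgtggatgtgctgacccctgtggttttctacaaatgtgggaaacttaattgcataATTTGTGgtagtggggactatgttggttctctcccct
RNU2-59P: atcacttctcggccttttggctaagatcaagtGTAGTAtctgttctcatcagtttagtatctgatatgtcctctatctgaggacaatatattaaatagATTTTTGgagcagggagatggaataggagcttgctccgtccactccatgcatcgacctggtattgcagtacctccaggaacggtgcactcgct
RNU4-1: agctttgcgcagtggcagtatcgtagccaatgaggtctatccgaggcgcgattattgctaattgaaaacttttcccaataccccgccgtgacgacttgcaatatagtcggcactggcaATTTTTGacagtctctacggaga
RNU4-2: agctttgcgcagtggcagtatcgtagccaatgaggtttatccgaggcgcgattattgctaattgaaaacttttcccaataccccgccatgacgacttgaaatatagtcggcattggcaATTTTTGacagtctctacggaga
RNY1: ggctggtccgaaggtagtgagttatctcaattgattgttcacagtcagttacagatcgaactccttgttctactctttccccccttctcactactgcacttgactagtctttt
VTRNA1-3: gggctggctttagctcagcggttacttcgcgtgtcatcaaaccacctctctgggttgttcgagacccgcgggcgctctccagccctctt

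RNU1-1 lies at chr1:16514122-16514285 (minus strand), RNU1-67P at chrX:119423742-119423905 (plus), RNU1-85P at chr17:58679527-58679690 (minus) and RNU2-59P at chr10:101364845-101365035 (minus). The U4 genes are neighbours at chr12:120293097-120293237 and chr12:120291763-120291903, both on the minus strand. RNY1 lies at chr7:148987136-148987248 (minus) and VTRNA1-3 at chr5:140726158-140726246 (plus). RNU1-85P is named RNVU1-34 in GENCODE v44. RNU1-59P, RNU1-120P and RNU1-122P, named below by their symbols in the deposited values, are RNVU1-24, RNVU1-22 and RNVU1-21 there. RNU4-1 and RNU4-2 differed at 4 of 141 aligned positions, and RNU1-67P differed from RNU1-1 at 8 of 164. The letters ACTTACCTG were present in RNU1-1 but in neither RNU1-67P nor RNU1-85P, while all 3 held the Sm site ATTTGTG.

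Recovered reads on genes numbered 13703033 to 17248924 per input and 25134156 to 36008733 per ORC1 IP. Of these, 19653 to 24369 reads per input and 1991 to 8998 per ORC1 IP fell on the 97 genes, so most single values of the IPs rest on few reads, and a value of 0 allows up to 3 reads, or 1.74 to 4.73 normalised counts depending on the library. Normalised counts are reads divided by 1 size factor per library, so they are relative to the other RNAs of that library, and the amount of RNA recovered was not measured. Over all genes they summed to 14592514 in ORC1 IP 2, the lowest of the 6 libraries, against 30181927 and 26836037 in ORC1 IPs 1 and 3. ORC1 IP 2 thus differed from the other IPs over all genes and not only in the members below. The epithelial markers EPCAM, CDH1, KRT8, KRT18, KRT19 and CDX2 had mean input levels of 341 to 42650.1 normalised counts, the epithelial marker VIL1 had 3.58, and COL1A1, a fibroblast marker, had 232.

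Together the 97 genes were at low levels in the ORC1 IPs. Their summed level was 20737, 37729 and 28515 normalised counts in the inputs, in the order of their replicate numbers, and 3687, 5224 and 1484 in the IPs, an order kept throughout. The groups did not overlap, and the mean was 8.37-fold lower in the IPs (28994 ± 8506 against 3465 ± 1880.0, SD, n = 3). As a share of all counts, the 97 genes made up 0.114% to 0.175% of the inputs and 0.00553% to 0.0358% of the IPs. In the inputs, U4 genes held 43.0% of the summed counts, U2 genes 37.2% and U1 genes 13.8%. These 3 classes therefore set the sum, and each class is given on its own below.

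Single genes were tested with limma on log2(normalised count + 1) across all 16513 genes with a mean of at least 10 over the 6 libraries, with Benjamini-Hochberg adjustment over all of them and an adjusted p under 0.05 as the threshold. Of the 97 genes, 39 passed this filter, and 25 of these fell in ORC1 IP, where 1.42% of all tested genes were called lower. On recovered reads, edgeR called 24 of them lower (1.31% of all tested genes) and DESeq2 31 (4.35%), and limma with the replicate number as a block called 31 (1.16%). None of the 39 was called higher in limma, edgeR, DESeq2 or the blocked fit, which called 2.28%, 2.57%, 7.67% and 2.62% of all tested genes higher, and no tested member had a positive fold change, so none was higher at an unadjusted p under 0.05 either. Of the 39, 17 had a mean of at least 10 in both groups and 22 only in the inputs, and the latter had to be lower in the IPs to be included. For this reason, counts and medians over the 39 describe the values and carry no further weight. Their log2 fold changes ran from -4.14 to -1.01 with a median of -3.10, against a median of 0.01 over all tested genes, and 64 tested genes (0.388%) had a fold change below -3.10.

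**Figure D1:**
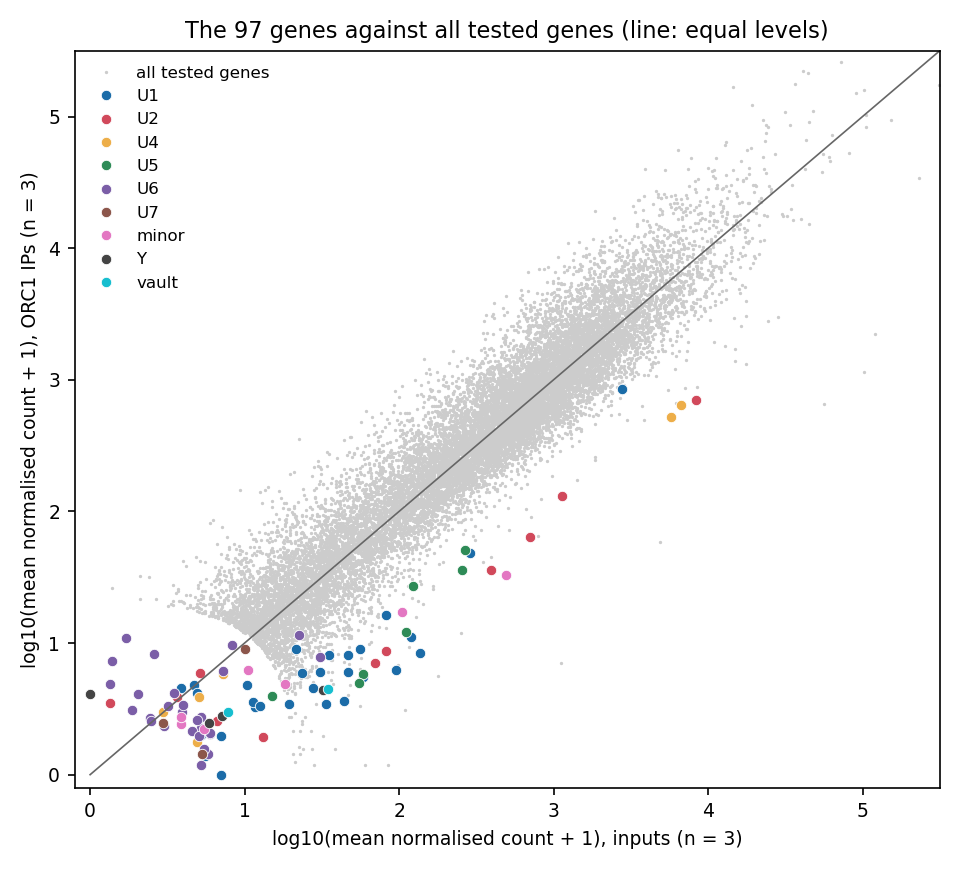
Mean level of each gene in the inputs (x axis) against the ORC1 IPs (y axis), both as log10(mean normalised count + 1), with the 97 genes coloured by class, all tested genes in grey and a line of equal levels. The 39 tested genes lie below the line, while among the copies at low levels some of U1, U2, U4, U6 and Y lie on or above it; the sloping edge of the grey points at low levels is the filter at a mean of 10.

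Without any filter, every ORC1 IP was below every input for 43 of the 97 genes, compared with 12.2% of all 23013 genes. The opposite order, every IP above every input, was found for 4 of the 97, compared with 11.4% of all genes. These 4 were RNU6-26P, RNU6-322P, RNU6-510P and RNY5P8, and they are described with their classes.

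**Figure D2:**
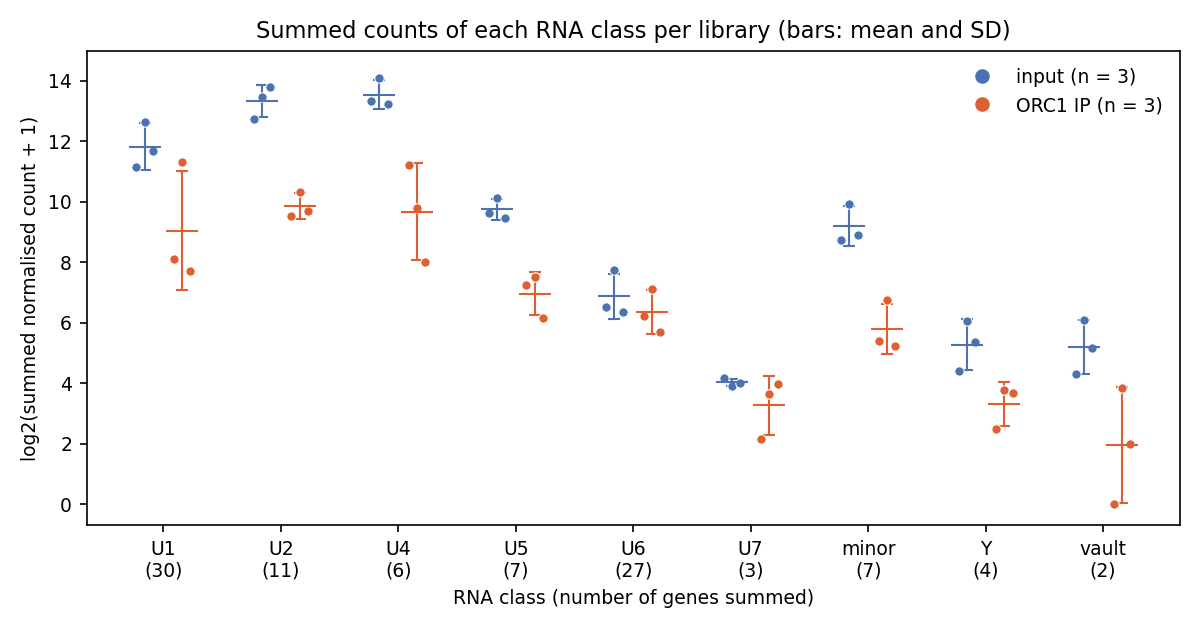
Summed normalised counts of each class, as log2(sum + 1), for the 3 inputs (blue) and 3 ORC1 IPs (orange), with the mean and SD of each group as bars and the number of genes in parentheses. U2, U4, U5, minor, Y and vault sums do not overlap between groups, whereas the U1 sum of ORC1 IP 2 lies within the inputs and U6 and U7 sums overlap.

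U1 snRNA, which recognises the 5′ splice site, was represented by many low copies and 1 abundant one. The class sum was 2253, 6444 and 3299.8 normalised counts in the inputs and 275, 2567 and 210.2 in the IPs, which gives a 3.93-fold lower mean in the IPs. The single library ORC1 IP 2 sets this value, through a single copy. RNU1-67P, the copy with the highest input level, had 1659.7, 4299 and 2362 normalised counts in the inputs, and 149, 2249 and 140.1 in the IPs. ORC1 IP 2 thus lay between inputs 1 and 3, while IPs 1 and 3 were far below all inputs. Its log2 fold change was -2.82 ± 0.84 (SE) and missed the threshold (adjusted p = 0.0792), although it passed with the replicate number as a block (adjusted p = 0.00713, range over all alternatives 9.43e-05 to 0.421). Without RNU1-67P, the U1 sum was 593, 2145 and 937 in the inputs and 127, 318 and 70.1 in the IPs, a 7.14-fold lower mean with no overlap. The log2 ratio of the class sums was -1.97 with all libraries and -4.04 without ORC1 IP 2.

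Of the 18 tested U1 genes, 8 fell in ORC1 IP, where 1.42% of all tested genes were called lower. Of these 18, 14 had a mean of at least 10 only in the inputs and had to be lower in the IPs to be included. RNU1-85P had 43.3, 159 and 83.1 normalised counts in the inputs and 1.15, 11.6 and 2.98 in the IPs, the lowest log2 fold change of all tested members (-4.14 ± 0.73 SE, adjusted p = 0.0136). RNU1-60P, whose identifier had no match in GENCODE v44, had 61.2, 221 and 124 against 10.4, 8.13 and 3.73 (log2 fold change -3.93 ± 0.60 SE, adjusted p = 0.00858). For both, the highest IP was well below the lowest input, although the IP values rest on few reads. RNU1-136P also fell, by 3.38 on the log2 scale (adjusted p = 0.0113).

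The genes with a variant U1 symbol (RNVU1) in the deposited values, from a family of U1-like genes, had the same direction. RNVU1-14 had 132, 462 and 263 normalised counts in the inputs and 46.1, 77.8 and 18.6 in the IPs, and fell by 2.60 on the log2 scale (adjusted p = 0.0339). RNVU1-6 had 49.6, 230.1 and 73.7 against 6.91, 21.5 and 2.24, and fell by 3.52 (adjusted p = 0.0294). Input 2 was the highest input for both, and no IP reached the lowest input. RNVU1-13, RNVU1-15 and RNVU1-18 fell as well, with log2 fold changes of -2.70, -3.04 and -3.24 and adjusted p-values of 0.0498, 0.0381 and 0.0357. RNVU1-19 and RNVU1-20 missed the threshold, with log2 fold changes of -2.10 and -2.45 and adjusted p-values of 0.104 and 0.059. RNVU1-17, below the filter, had 2.11, 7.88 and 8.19 normalised counts in the inputs and 0 in each IP, which is at least 2.45-fold lower against a floor of 3 reads per library.

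RNU1-1, the canonical U1 gene, had 25.3, 101 and 37.4 normalised counts in the inputs and 3.45, 16.3 and 4.47 in the IPs. No IP reached the lowest input, but the log2 fold change of -2.65 ± 0.70 (SE) missed the threshold (adjusted p = 0.0569). RNU1-1 and RNVU1-18 had identical GENCODE sequences over all 164 bases, and every 50-base stretch of both was shared with transcripts of 16 other genes. The sources used here do not say how reads matching several genes were counted, so the low level of the canonical gene and the split between these copies are uncertain. With the replicate block, RNU1-1, RNU1-11P, RNU1-59P and RNU1-120P also passed, with adjusted p-values of 0.0298, 0.0316, 0.0299 and 0.0287. Over all alternatives the adjusted p of these 4 genes ranged from 0.00189 to 0.389. Among the tested U1 genes, the smallest difference was that of RNU1-122P, with a log2 fold change of -1.05 ± 0.71 (SE, adjusted p = 0.422). RNU1-134P had 14.8, 55.2 and 19.9 normalised counts in the inputs and 4.61, 7.55 and 2.98 in the IPs. No IP reached its lowest input, but its log2 fold change of -2.20 ± 0.67 (SE) missed the threshold (adjusted p = 0.0833).

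U2 snRNA pairs with the branch site, and the summed counts of its copies were low in every IP. All 11 U2 genes with values carry pseudogene symbols. RNU2-1, the U2 gene used as the reference for sequence identity, was not among them. All 6 tested U2 genes fell (1.42% of all tested genes were called lower), and 2 of the 6 passed the filter only through the inputs. The class sum was 6868, 11328 and 14196 normalised counts in the inputs and 740.4, 1298 and 829 in the IPs, 11.3-fold lower on average. RNU2-59P made up most of it, with 5214, 8693 and 11309 counts in the inputs and 528, 972 and 604 in the IPs (log2 fold change -3.56 ± 0.43 SE, adjusted p = 0.00345). The highest IP was thus far below the lowest input. RNU2-61P had 791, 1035 and 1554 against 87.5, 160.2 and 141 (log2 fold change -3.10, adjusted p = 0.00406). RNU2-3P had 497, 1021 and 580.4 against 70.2, 88.2 and 30.6 (log2 fold change -3.51, adjusted p = 0.00477), and RNU2-6P had 243, 334 and 594 against 28.8, 42.4 and 32.8 (-3.37, adjusted p = 0.00449). For both genes the groups did not overlap. RNU2-63P and RNU2-64P were lower in level, with input means of 81.0 and 69.0, and had log2 fold changes of -3.39 and -3.30 (adjusted p = 0.0192 and 0.0113). RNU2-59P shared no 50-base stretch with another annotated transcript, and RNU2-61P shared 0.704% of its stretches. RNU2-59P was nevertheless 95.3% identical to RNU2-1. Whether reads of RNU2-1 were counted on the U2 copies was not tested.

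U4 snRNA pairs with U6 in the tri-snRNP and is released before catalysis. Both tested U4 genes fell (1.42% of all tested genes were called lower). RNU4-1 had 4743, 7833 and 4682 normalised counts in the inputs and 1058, 381 and 136 in the IPs (log2 fold change -3.87 ± 0.60 SE, adjusted p = 0.00936). RNU4-2 had 5481, 9634 and 4965 in the inputs and 1324, 497 and 120.0 in the IPs (-3.89 ± 0.68 SE, adjusted p = 0.0134). The order of the libraries was the same for both, with ORC1 IP 1 highest and ORC1 IP 3 lowest among the IPs. Between same-numbered libraries the log2 ratio of RNU4-2 was -2.05, -4.27 and -5.36 in replicates 1, 2 and 3, so the size of the fall varied widely while the direction did not. The log2 ratio of summed U4 counts was -3.40, and -4.44 without ORC1 IP 1. Per kilobase of transcript, RNU4-2 was the most abundant tested member in the inputs (47471 normalised counts per kilobase), followed by RNU2-59P (44008), RNU4-1 (40797) and RNU1-67P (16914). The input ranges of the first 3 overlapped, although RNU4-2 was above RNU4-1, of the same length, in each input. The 4 other U4 genes were under the filter.

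**Figure D3:**
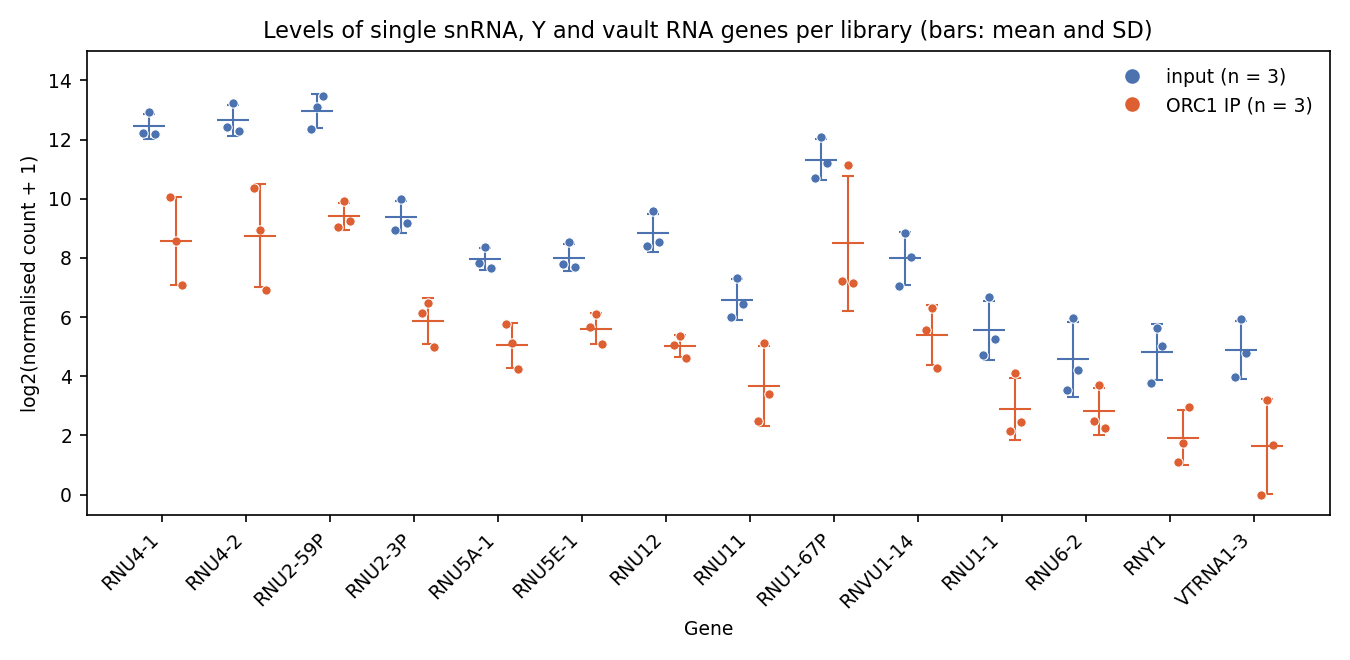
Levels of 14 genes in each library, as log2(normalised count + 1), for the 3 inputs (blue) and 3 ORC1 IPs (orange), with the mean and SD of each group as bars. The groups overlap for RNU1-67P, where ORC1 IP 2 has 2249 counts, and for RNU6-2, and are apart for the other 12 genes.

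U5 snRNA, whose loop aligns the exons, was lower in the IPs for each of its genes. The class sum was 801, 1117 and 713 normalised counts in the inputs and 149.7, 182 and 70.1 in the IPs, 6.54-fold lower on average. Every IP was below every input for all 7 genes, compared with 12.2% of all 23013 genes. RNU5E-1 had 219, 374 and 207 counts against 49.5, 67.9 and 32.8 (log2 fold change -2.40 ± 0.44 SE, adjusted p = 0.017). RNU5A-1 had 227, 333 and 201 against 53.0, 34.3 and 17.9 (-2.91 ± 0.48 SE, adjusted p = 0.0111). These are the 2 most abundant U5 genes, and their input ranges overlapped. RNU5B-1 had 99.2, 137 and 92.4 against 16.1, 12.8 and 4.47 (-3.32, adjusted p = 0.0113). RNU5D-1, RNU5F-1 and RNU5A-8P also fell, with log2 fold changes of -3.59, -2.41 and -3.57 and adjusted p-values of 0.0113, 0.0384 and 0.0131.

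U6 snRNA is the catalytic RNA of the spliceosome. It is made by RNA polymerase III and carries LSm rather than Sm proteins. The summed level of its 27 genes, 26 of them named as pseudogenes, had the smallest difference of the 5 major classes. The class sum was 91.8, 213 and 81.9 normalised counts in the inputs and 73.7, 139 and 51.4 in the IPs, so the groups overlapped, and the log2 ratio of means was -0.55 (0.021 without input 2). Neither of the 2 tested genes passed the threshold in limma, edgeR or DESeq2, and 1 of them had an unadjusted p under 0.05, as did 3575 of all 16513 tested genes. RNU6-2, the only U6 gene without a pseudogene symbol here, had 10.6, 61.5 and 17.6 counts in the inputs and 4.61, 12.2 and 3.73 in the IPs (log2 fold change -1.75 ± 0.74 SE, adjusted p = 0.188). RNU6-850P had 17.9, 36.2 and 10.5 against 8.06, 19.2 and 4.47 (-1.01 ± 0.69 SE, adjusted p = 0.425). The 26 U6 copies other than RNU6-2, all named as pseudogenes, summed to 99.0 ± 46.1 counts in the inputs and 81.3 ± 41.1 in the IPs. Their log2 ratio of means was -0.28, against -2.13 for RNU6-2 alone, so the small difference of the class sum is that of these copies.

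Whether U6 snRNA itself was recovered to a different degree could not be measured at this depth, since the class had 292 reads in the 3 inputs and 373 in the 3 IPs together. As for RNU1-1, the split of reads between similar U6 copies is not stated, so the level of RNU6-2 is uncertain as well. The 3 U6 copies with every IP above every input were named after their values were seen, and each was under the filter. RNU6-26P had 2.11, 0 and 0 normalised counts in the inputs and 4.61, 22.1 and 2.98 in the IPs. RNU6-322P had 0, 0 and 1.17 against 6.91, 8.13 and 3.73, and RNU6-510P had 3.17, 1.58 and 0 against 4.61, 8.13 and 8.94. For 3 other U6 copies every IP was below every input, and the remaining 21 overlapped. Over all 23013 genes, every IP was above every input for 11.4% and below for 12.2%.

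The minor spliceosome removes a rare type of intron, with U11 and U12 in the places of U1 and U2. The summed level of its 7 genes was 428, 985 and 481 normalised counts in the inputs and 41.5, 107 and 36.5 in the IPs, 10.2-fold lower on average with no overlap. RNU12 had 336, 769 and 369.8 counts against 32.2, 40.1 and 23.8 (log2 fold change -3.82 ± 0.44 SE), with the smallest adjusted p of the 97 genes (0.00241). RNU11 had 63.3, 161 and 85.4 against 4.61, 34.3 and 9.69 and fell by 2.91 (adjusted p = 0.0377). Groups did not overlap for either gene, and RNU12 was in addition the more even of the pair among the IPs. Both identifiers are annotated in GENCODE v44 as long non-coding RNAs that overlap the U12 and U11 genes, of 664 and 131 bases, so which transcript the reads came from cannot be told apart. RNU4ATAC, the minor counterpart of U4, had 13.7, 23.6 and 14.0 against 0, 11.03 and 0.745 (log2 fold change -2.67 ± 0.89 SE, adjusted p = 0.107). RNU6ATAC was under the filter, with 8.44, 14.2 and 5.85 in the inputs and 0, 15.1 and 0.745 in the IPs.

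Few reads fell on the U7, Y and vault genes. The 3 U7 genes, none of which passed the filter, summed to 16.9, 14.2 and 15.2 normalised counts in the inputs and 3.45, 11.6 and 14.9 in the IPs. Their most abundant copy, RNU7-111P, had 9.13 ± 5.42 counts in the inputs and 8.09 ± 5.29 in the IPs (SD, n = 3), a difference within the spread of the libraries.

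RNY1, a Y RNA that binds Ro60, had 12.7, 48.9 and 31.6 normalised counts in the inputs and 1.15, 2.32 and 6.71 in the IPs. All IPs were below all inputs, and the log2 fold change was -2.88 ± 0.73 (SE, adjusted p = 0.0486). The Y class summed to 42.0 ± 23.2 counts in the inputs and 9.77 ± 4.49 in the IPs. The 3 other Y genes were pseudogenes under the filter, for 2 of which every IP was below every input (12.2% of all 23013 genes). The third of these, RNY5P8, named after its values were seen, had no read in any input and 14 reads in the IPs, a level that a floor of 3 reads per input does not set apart.

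VTRNA1-3, a vault RNA, had 14.8, 59.9 and 26.9 normalised counts in the inputs and 0, 8.13 and 2.24 in the IPs. The groups did not overlap, but the log2 fold change of -3.28 ± 0.85 (SE) missed the threshold (adjusted p = 0.0535). It passed with the replicate block (adjusted p = 0.0181, range over all alternatives 0.00391 to 0.270). VTRNA2-1 was under the filter, with 4.22, 7.88 and 8.19 in the inputs and 0, 5.23 and 0.745 in the IPs.

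**Figure D4:**
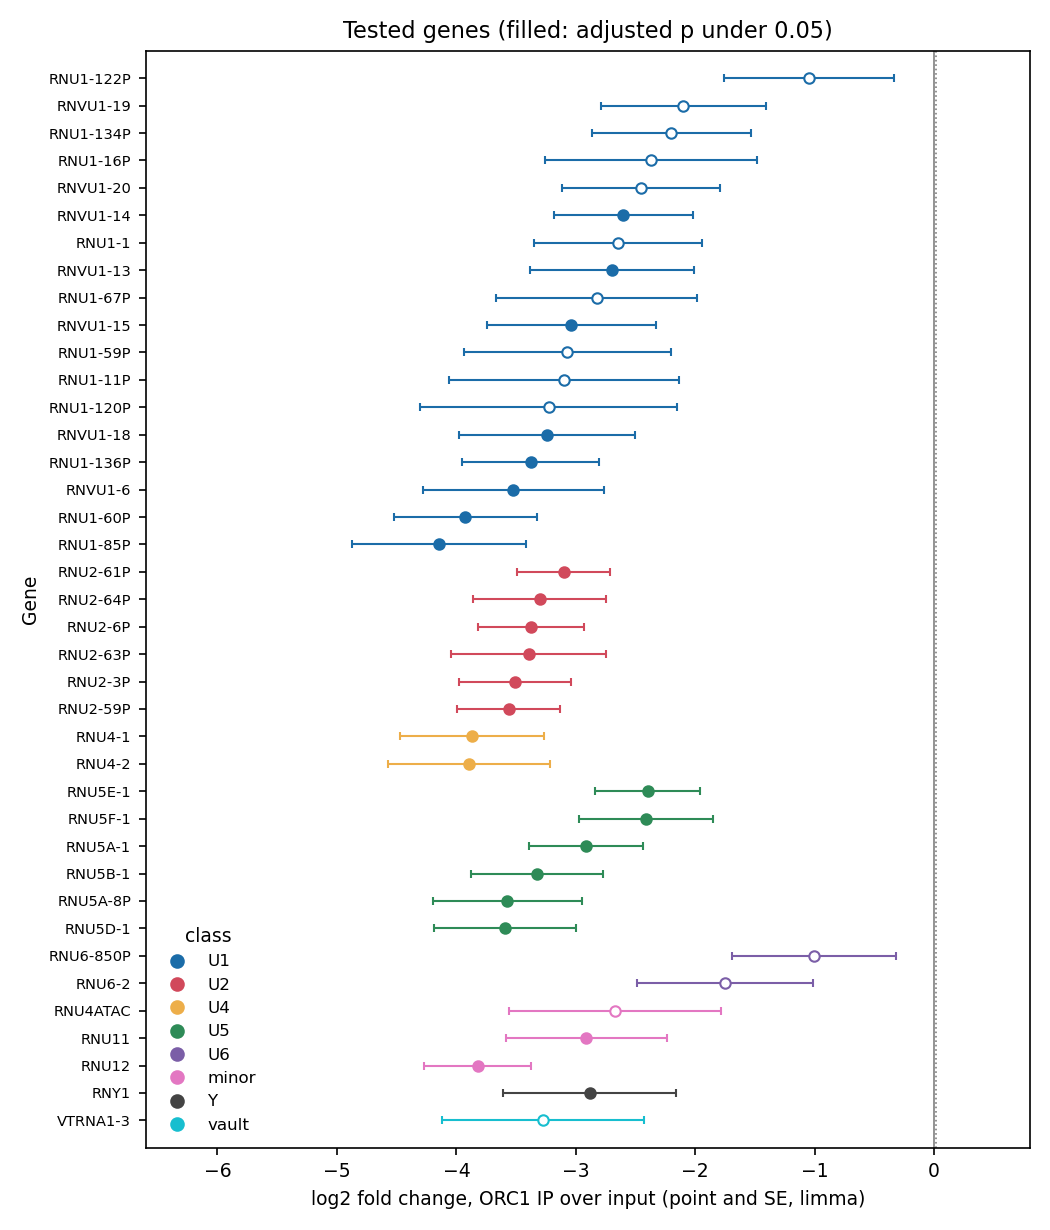
Log2 fold change of ORC1 IP over input with its SE (x axis) for the 39 tested genes, grouped and coloured by class. Filled points have an adjusted p under 0.05 in limma, the solid line marks 0 and the dotted line the median of all tested genes (0.01); every point lies left of 0, from RNU1-85P at -4.14 to RNU6-850P at -1.01.

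The 58 genes under the filter had few reads in either group. Their summed level was 209, 383 and 197 normalised counts in the inputs and 117, 241 and 91.7 in the IPs, a log2 ratio of means of -0.81. For 11 of them every IP was below every input, for 4 every IP was above, and 43 overlapped. Over all 23013 genes the shares were 12.2% below and 11.4% above. The shares among all genes under the filter were not computed, so these counts are not read as a difference. They held 609 reads in the inputs and 640 in the IPs, so differences of single genes were not detectable at this depth for most of them.

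What the members shared beyond their names was looked for in the annotation. Of the 97 identifiers, 90 matched GENCODE v44, with transcripts of 62 to 664 bases and a median of 126. The 7 without a match, for which no sequence or position was available, include RNU1-60P, RNVU1-13, RNVU1-19, RNVU1-20 and RNY5P8. No 50-base stretch of 61 members occurred in another gene's transcripts, all stretches of 11 members did, and 18 were shared in part. Of the tested members, 9 of 17 with unshared sequence fell and 5 of 7 with fully shared sequence fell (1.42% of all tested genes were called lower). Of the 39 tested members, 22 passed the filter only through the inputs, so these counts are not read as a difference. The U1 splice-site letters ACTTACCTG were in 11 of 26 U1 sequences (0.0702% of 245090 annotated transcripts hold them in the first 164 bases) and the Sm site ATTTGTG in 20 (0.917%). Among tested U1 genes with a GENCODE sequence, those with and without ACTTACCTG had median log2 fold changes of -3.10 and -3.04, with 3 of 5 and 3 of 9 called. Of the 18 tested U1 genes, 14 passed the filter only through the inputs, so these values are not read as a comparison of the motif. The letters GTAGTA were in 5 of 11 U2 sequences (0.946%) and the Sm site ATTTTTG in 7 (1.43%), and the tested U2 genes were called with and without either.

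Since many copies lie inside longer genes, their values were set beside those of the host. On the same strand, 29 members lay within a gene with values, 22 lay only opposite such a gene, and 39 lay in neither, with summed log2 ratios of means of -1.72, -3.46 and -3.30. The same-strand group is dominated by RNU1-67P, the opposite-strand group by RNU2-59P, and the group in neither by RNU4-1 and RNU4-2. RNU1-85P lies in an intron of TEX14, which had 54.9, 31.5 and 35.1 normalised counts in the inputs and 100.2, 139.9 and 101 in the IPs (log2 fold change 1.49 ± 0.44 SE, adjusted p = 0.0766), so the copy and its host had opposite signs. RNU1-67P lies in an intron of SLC25A43, which had 307, 202 and 222 counts in the inputs and 140.5, 716 and 218 in the IPs (0.22 ± 0.53 SE, adjusted p = 0.852). ORC1 IP 2 was the highest IP for both RNU1-67P and SLC25A43. Whether reads of the host contribute to the counts of the copy was not tested. RNU2-59P lies opposite an intron of BTRC, whose log2 fold change was 0.02 (adjusted p = 0.985). Over the 4 tested members with a tested host on the same strand, host fold changes ran from -0.52 to 1.49 and those of the members from -4.14 to -2.20.

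The mRNAs of the proteins that bind, assemble or process these RNAs were compared in the same fit. Of 96 tested mRNAs, 5 rose and 2 fell in ORC1 IP (2.28% and 1.42% of all tested genes were called in these directions), and their median log2 fold change was -0.03. None of the 7 Sm core, 6 LSm ring, 3 U1 snRNP and 8 U5 snRNP mRNAs passed the threshold in limma, and the Sm core had a median of -0.70. The level of an mRNA in these libraries says nothing of the protein that binds the snRNA.

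LARP7, a La-related protein involved in U6 modification, had 719, 184 and 160.3 normalised counts in the inputs and 5189, 1085 and 2084 in the IPs (log2 fold change 3.03 ± 0.62 SE, adjusted p = 0.0247). SSB, which encodes La, the binder of RNA polymerase III transcripts such as Y RNA and U6 precursors, had 1134, 349.9 and 356 against 5657, 1132 and 3336 (2.41 ± 0.60 SE, adjusted p = 0.0472). For SSB, ORC1 IP 2 was just below input 1, so the groups overlapped. RNPC3, ZCRB1 and ZRSR2, all proteins of the minor spliceosome, rose by 1.84, 2.24 and 2.52 (adjusted p = 0.0381, 0.0485 and 0.0435). The mRNAs that fell were SF3B5, of the U2 snRNP, with 1137, 1502 and 1893 counts against 325, 498 and 399 (-1.88 ± 0.35 SE, adjusted p = 0.0179), and NHP2L1, a U4-binding protein, with 3163, 4868 and 5106 against 1286, 1396 and 1406 (-1.65 ± 0.38 SE, adjusted p = 0.0381). NHP2L1 did not pass with the replicate block (adjusted p = 0.0682). For SF3B5 and NHP2L1 every IP was below every input.

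**Figure D5:**
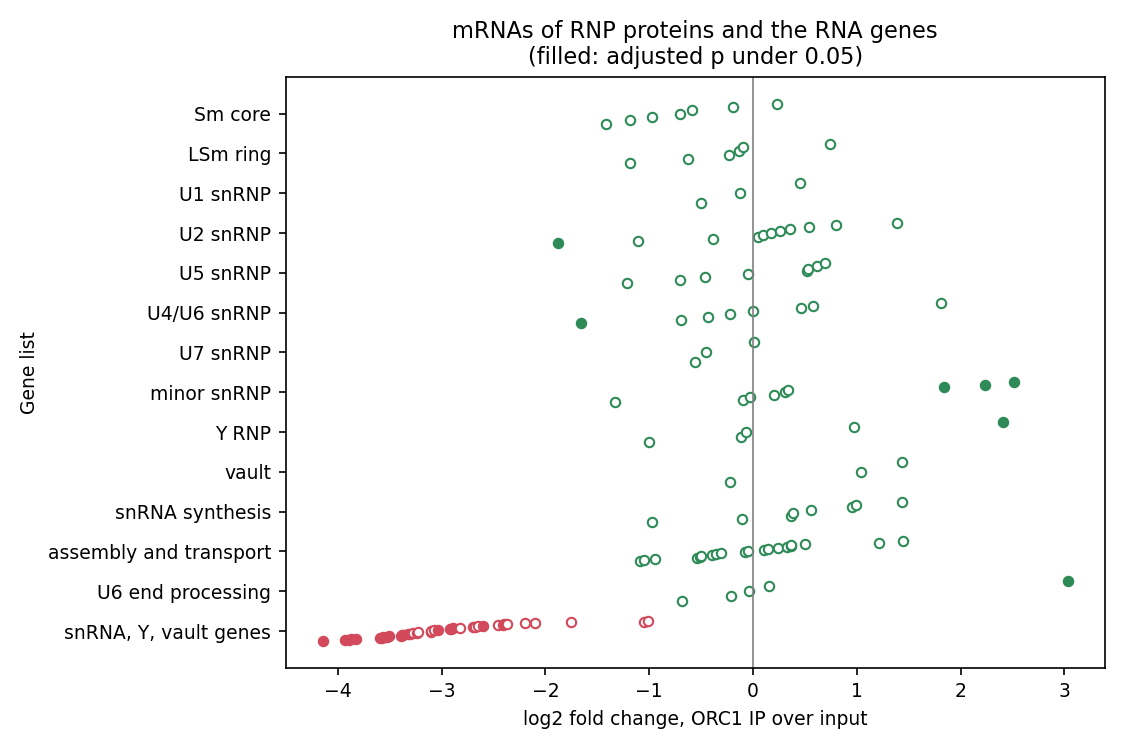
Log2 fold change of ORC1 IP over input (x axis) for 96 mRNAs of RNP proteins by list (green) and for the 39 tested snRNA, Y and vault genes (red), with filled points at an adjusted p under 0.05. The mRNAs lie on both sides of 0, from -1.88 to 3.03, and the RNA genes on the left only.

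The number of calls depended on single libraries. Without input 3, 4 of the 39 members were called lower, with 0.139% of all tested genes, and without ORC1 IP 3 there were 7, also with 0.139%. Without input 2 there were 10 (0.236%), without ORC1 IP 1 there were 19 (0.721%) and without input 1 there were 23 (0.999%). Leaving out ORC1 IP 2 gave 35, with 6.38% of all tested genes called lower. For the 17 members that passed the minimum in both groups, the level was lower in the IP than in the input of the same number in each of the 3 replicates. The share of all tested genes with this pattern was not computed. The groups did not overlap for 14 of the 17, and every IP was below every input for 13.5% of all tested genes. RNU12 and the U2 genes RNU2-3P, RNU2-59P and RNU2-61P passed the threshold whichever library was left out.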

How the data were processed

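Native ORC1 RIP-seq libraries of HCT116 nuclei (3 inputs, 3 ORC1 IPs) were analysed from the table the authors deposited. Per the labels and the study's methods, the authors made total RNA libraries and used Trimmomatic for trimming, STAR for alignment to hg19, featureCounts for counting per gene and DESeq2 for the comparison with input. The deposited values are a signal: for each library, read counts of genes over a single size factor. Whole reads were recovered for 100% of values within a tolerance of 0.001. The authors' own fold changes, standard errors, statistics, p-values and adjusted p-values are held in the same table and were not used. The sources used here state neither strand use nor the treatment of reads matching several genes.

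Genes with a mean of at least 10 were tested with limma 3.58.1 (trend, no block) on log2(normalised count + 1), with Benjamini-Hochberg adjustment over all genes and a two-sided adjusted p under 0.05. The scale understates changes of low genes. Class sums and medians carry no test. Alternatives were pseudocounts of 0.5 and 5, no filter, a mean of at least 50, other scalings, edgeR 4.0.16 and DESeq2 1.42.0 on recovered reads, a replicate block, only genes not named as pseudogenes, and each library left out with the same genes tested. Leaving out RNU1-67P was added after seeing the data.

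The labels give an input and an ORC1 IP the same RIP replicate number, which was taken as the pairing. As a check, each library's deviation from the mean of its group was correlated, across genes, with that of its partner, which gave -0.32, -0.24 and 0.22. The values of replicates 1 and 2 were negative, so the check did not bear out the pairing, which may be wrong. Calls with the replicate block and ratios between same-numbered libraries rest on this pairing.

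Named were all tested members without a pseudogene symbol, called members up to 20 by adjusted p, the copy with the highest input level per class, the 5 largest and 5 smallest fold changes of tested members, called protein mRNAs up to 10, and host genes. Outside this rule, members that newly passed with the replicate block were named too. So were members under the filter without a pseudogene symbol, and those with every IP above every input. Members and lists were chosen with earlier results of these data known. Sequences, positions and hosts came from GENCODE v44 (GRCh38), matched by identifier, since no hg19 annotation was used here. Some sequences are not reported here.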

Additional observations from a re-analysis of the deposited data

How the results depend on the processing

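Of 641 values of single members under the alternatives, 532 stayed on the same side of the threshold with the same sign, 78 no longer passed it, 31 newly passed it and 0 changed sign. Under the replicate block, 31 members were called lower in limma and 30 in edgeR, and 1 protein mRNA was called lower in either. The block lost no member call. The number of members called lower was 16 of 17 with a mean of at least 50, 15 under total count scaling and 4 to 35 with each library left out, and 0 were called higher with each library left out. Total count scaling moved the median of all genes to -0.20 and the share of higher calls among all calls from 61.6% to 47.3%, with 98 genes called lower and 88 higher, against 718 and 1266 in DESeq2 and 23 to 1053 and 6 to 1965 with each library left out. The cause was not tested. Protein mRNAs called higher were 2 at a mean of 50, 1 under total counts, 10 in DESeq2 and 0 to 23 with each library left out, and those called lower 1 under total counts, 6 in DESeq2 and 0 to 6.

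The median log2 fold change of tested members was -2.47 at a pseudocount of 5, -1.71 with no filter, when all 97 genes enter, and -3.52 to -2.61 with each library left out. The U1 median was -2.11 at a pseudocount of 5, -2.41 with no filter and -3.52 at a mean of 50, the U6 median -1.05 and -0.46 and the vault median -2.14 and -2.52 (pseudocount 5 and no filter). With no filter the U4, minor and Y medians were -0.70, -1.71 and -1.28. Leaving out each library gave medians of -3.41 to -2.43 for U1, -4.66 to -3.06 for U4, -1.86 to -0.81 for U6, -3.74 to -2.31 for minor and -4.06 to -2.46 for vault genes. The log2 ratios of summed counts ranged from -4.04 to -1.45 for U1 (-2.84 without RNU1-67P), -4.44 to -2.92 for U4, -1.04 to 0.021 for U6, -2.44 to -1.61 for Y, -4.02 to -2.88 for minor and -4.77 to -2.31 for vault genes. The lowest of these were without ORC1 IP 2 for U1, U6, minor and vault genes, without ORC1 IP 1 for U4 and without input 1 for Y genes. The U6 ratio changed sign to 0.021 without input 2. Without pseudogene symbols, the ratio was -2.13 for U6 and -3.19 for Y.

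Depth limits the U6, U7, Y and vault classes, and no value here separates copies of identical sequence. The p-values rest on 3 libraries per group.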
